A study of Rattus norvegicus with 4 samples.

Results

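Hippocampal levels of 9 genes of the inhibitory system were followed through 2 forms of voluntary running in rats. The genes were Gad1, Gad2, Slc32a1, Slc6a11, Pvalb, Calb1, Reln, Gabbr1 and Gabbr2. They were found on a rat whole-genome oligo array by the RefSeq accession of each spot, and every probe of a gene was kept, which gave 15 probes. They stand among 8899 named genes and among 41012 probes in all. Gad1 had 3 probes, Calb1 had 4, Reln had 2 and the other 6 genes had 1 each. The rule that found their probes used names and no threshold on a measured value, but the genes themselves were proposed with earlier results of these data known.

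The rats were male Wistar rats aged 10 weeks at the start, each in a cage of its own. The sedentary group (Sed, n = 10) lived in standard cages. The wheel running group (WR, n = 8) had free access to a wheel without resistance for 4 weeks. The resistance wheel running group (RWR, n = 8) had the same access for 4 weeks, while the resistance of the wheel was raised in steps to 30% of body weight. Hippocampal RNA was pooled within each group. By the amounts of RNA given in the methods, 3 replicates went into a pool, fewer than the rats of a group, and whether each replicate was 1 rat was not given in the sources used here. The pools were hybridized to 4 chips in 2 colours. Chips 1 and 2 set the WR pool against pooled sedentary RNA, and chips 3 and 4 set the RWR pool against pooled sedentary RNA. Whether 1 sedentary pool served both pairs was not given in the sources used here. It is called the sedentary pool below. The dyes were exchanged between the chips of a pair. The running RNA carried Cy5 on chips 1 and 3 and Cy3 on chips 2 and 4. Both chips of a pair read the same pools, so each comparison had 1 biological replicate. No test between the conditions could be made. Unless marked as over spots, each SD below is over the 2 chips of a pair. It holds no biological spread and, because the dyes were exchanged, reflects the lean of a probe towards a dye.

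GABA is the main inhibitory transmitter of the hippocampus. It is made from glutamate by the decarboxylases that Gad1 and Gad2 encode, loaded into synaptic vesicles by the vesicular transporter Slc32a1, and cleared from the extracellular space by membrane transporters such as Slc6a11, which in brain is found mainly on astrocytes. Gabbr1 and Gabbr2 form the metabotropic GABA-B receptor, which acts as a pair of both subunits: Gabbr1 binds GABA and Gabbr2 couples to the G protein. Pvalb marks fast-spiking interneurons. Calb1, another calcium-binding protein, occurs in some interneurons and also in dentate granule cells and some pyramidal cells. Reln encodes a secreted glycoprotein that is made in the adult hippocampus mainly by interneurons and by Cajal-Retzius cells.

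On every chip each of the 15 probes cleared the background threshold of the software in Cy3 and in Cy5, so that each ratio was measured on both sides. None of the 9 genes was called in either comparison. A probe was called when the running pool was above 1.5-fold or below 0.75-fold of the sedentary pool on both chips of a pair and the p-value that came with each of these ratios was under 0.01. Over all 41012 probes, 0.0317% were called in WR (13 probes), 0.00244% as higher and 0.0293% as lower. In RWR 0.0585% were called (24 probes), 0.00975% as higher and 0.0488% as lower. By fold alone these shares were 0.549% in WR and 1.48% in RWR, and by the fold of the mean with the p-value of 1 chip they were 1.88% and 2.75%. Under both of these wider rules, no probe of the 9 genes was called. No ratio of the 15 probes on any chip was larger in size than 0.35 on the log2 scale. The lowest of their deposited p-values, each from the error model of a single chip, was 0.0999. With so few probes called among all of them, an absence of calls among 15 does not set these genes apart.

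Read by the brightest probe of each gene, the 9 genes had a median log2 ratio of 0.033 in WR, with a range from -0.22 to 0.12, and of 0.026 in RWR, with a range from -0.036 to 0.14. The 5927 named genes that were well above background had medians of 0.00019 and -0.0014. Of these genes 95.8% lay within 0.2 of zero in WR and 96.0% in RWR, where 0.2 on the log2 scale is a small change of level. In WR 8 of the 9 genes had a mean above 0, against 2975 of the 5927 genes. In RWR 6 of 9 did, against 2904 of the 5927. The SD over the pair was larger than the mean itself for 8 of 9 genes in WR, with Slc6a11 as the exception. In RWR it was larger for 8 of 9 genes, with Gad2 as the exception. Because the dyes were exchanged, this SD is a fixed multiple of the lean of a probe towards a dye, described below. Averaging the pair removes that lean, so the SD is not the error of the mean. In bulk tissue, fewer cells of a type and less RNA per cell cannot be told apart.

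**Figure D1:**
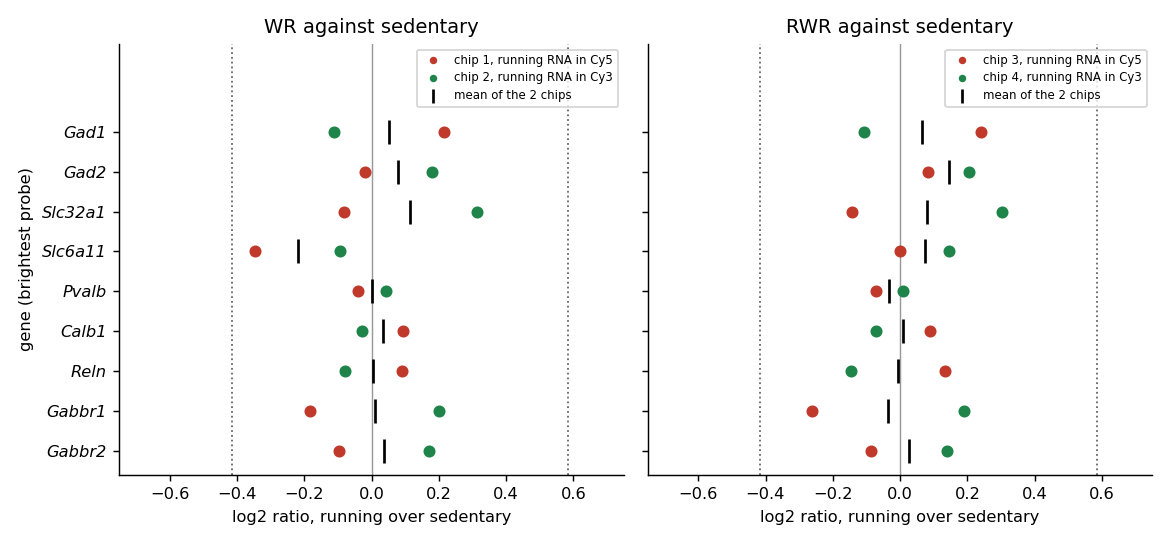
Log2 ratio of the running pool over the sedentary pool (horizontal axis) for the brightest probe of each of the 9 genes (vertical axis), with WR on the left and RWR on the right. Each point is 1 chip, coloured by the dye of the running RNA, the bar is the mean of the 2 chips and the dotted lines are at 1.5-fold and 0.75-fold. All points lie between the dotted lines, and for most genes the chips of a pair fall on opposite sides of zero.

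Gad1, the decarboxylase that supplies most of the GABA of the cell body, was read by its brightest probe at a signal of 1384 in the WR pool against 1192 in the sedentary pool on chip 1, and at 1113 against 1203 on chip 2. On chip 3 the signal was 1452 in the RWR pool against 1230, and on chip 4 it was 1114 against 1200. The pool labelled with Cy5 was thus the brighter one on all 4 chips, whichever pool it was. The mean log2 ratio of Gad1 was 0.051 ± 0.23 in WR (SD, 2 chips), or 1.04-fold, and 0.066 ± 0.24 in RWR, or 1.05-fold. The other 2 probes of Gad1 had signals near 120. They leaned to the opposite dye on chips 1 to 3, with log2 ratios of -0.17 and -0.18 on chip 1, of 0.23 and 0.24 on chip 2, and of -0.12 and -0.090 on chip 3. On chip 4 they differed, at 0.19 and -0.087. Their means were 0.028 and 0.026 in WR and 0.036 and -0.088 in RWR. All 3 probes of Gad1 therefore gave a mean within 0.1 of zero in both comparisons, although a single chip read them from -0.18 to 0.24.

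Gad2, the decarboxylase bound to synaptic vesicles, had signals of 1159 in the WR pool against 1175 in the sedentary pool on chip 1 and of 1139 against 1006 on chip 2. With the RWR pool it had 1355 against 1279 on chip 3 and 1140 against 989 on chip 4. The RWR pool was the brighter one on both chips of its pair, with log2 ratios of 0.083 and 0.20. The mean was 0.14 ± 0.086, or 1.105-fold, the highest of the 9 genes in RWR, and 90.1% of the 5927 genes had a smaller ratio in either direction. In WR the log2 ratios were -0.020 and 0.18, on both sides of zero, with a mean of 0.080 ± 0.14, or 1.06-fold. The signals of the sedentary pool itself ranged from 989 to 1279 over the 4 chips, and all signals of both running pools lay within that range except the 1355 of chip 3.

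Slc32a1, the vesicular loader that marks all GABA-releasing terminals, was read at 1862 in the WR pool against 1973 in the sedentary pool on chip 1 and at 2053 against 1650 on chip 2. On chips 3 and 4 it was read at 2010 in the RWR pool against 2221 and at 1963 against 1590. The Cy3 channel was the brighter one on all 4 chips, the reverse of the brightest probe of Gad1. The log2 ratios were -0.083 and 0.31 in WR and -0.14 and 0.30 in RWR. Their means were 0.12 ± 0.28, or 1.08-fold, and 0.080 ± 0.32, or 1.06-fold. The WR mean was the highest of the 9 genes in that comparison, yet its chips stood on opposite sides of zero.

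Slc6a11, the membrane GABA transporter of astrocytes, had the lowest WR mean of the 9 genes, read from a dim probe. Its signals were 71.9 in the WR pool against 91.4 in the sedentary pool on chip 1 and 56.4 against 60.1 on chip 2. With the RWR pool they were 76.3 against 76.3 on chip 3 and 75.8 against 68.5 on chip 4. The WR pool was the lower one on both of its chips, with log2 ratios of -0.35 and -0.094 and a mean of -0.22 ± 0.18, or 0.859-fold. In the RWR pair the ratios were 0.00013 and 0.15, with a mean of 0.073 ± 0.10, or 1.05-fold. In WR 96.9% of the 5927 genes had a smaller ratio in either direction. The deposited p-values of the single chips were 0.178 and 0.720 in WR and 0.9996 and 0.554 in RWR.

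The sedentary signal of this dim probe also differed between the chip pairs. The same dye was compared between the pairs, with the log2 ratio between the chips centred on its median over all probes. This takes the sedentary RNA to be the same on all chips. The sedentary signal of Slc6a11 differed by -0.38 in Cy3 and by 0.17 in Cy5 on the log2 scale. Over all probes above background, the SD of this difference was 0.19 in Cy3 and 0.20 in Cy5. Of these probes 81.4% and 85.5% lay within 0.2 of zero. The difference between the RWR and WR means of Slc6a11 was 0.29. The sedentary signals are the denominators of these ratios, so they are no independent measure of its error. The choroid plexus transcript Ttr, which encodes a thyroid hormone carrier, was also low in the WR pool, at log2 ratios of -0.72 and -0.99, and was the only called gene on the lists of markers examined. Of the 7 choroid plexus markers 6 were named on the array. Ttr and Folr1 were above background on every chip, whereas Kl, Clic6, Kcnj13 and Prlr were not. The WR mean of Folr1 was -0.21 and its RWR mean was 0.055. The 4 markers not above background did not go 1 way. Their WR means were 0.43 for Kl, -0.35 for Clic6, 0.28 for Kcnj13 and -0.0088 for Prlr, and their RWR means 0.30, 0.59, -0.52 and -0.15. The summed signal of the 6 named markers was 606 to 686 in the sedentary pool, 336 to 407 in the WR pool and 661 to 776 in the RWR pool. Most of this sum was Ttr, with mean signals of 542, 291 and 609, so it mainly repeats the reading of Ttr. The part of these cells in the reading of Slc6a11 was not tested.

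**Figure D2:**
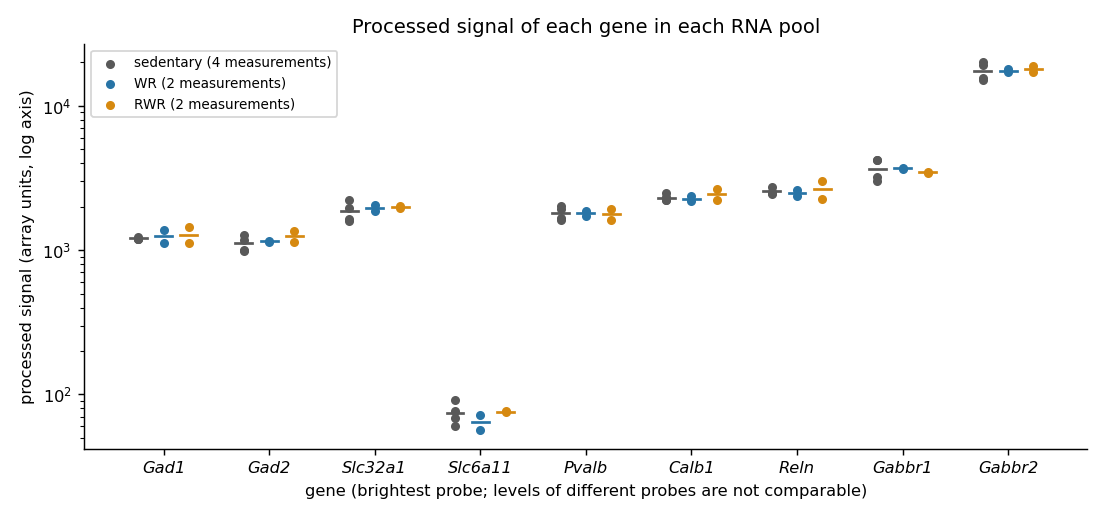
Processed signal (vertical axis, log scale) of the brightest probe of each gene in each pool, 1 point per chip and dye, with 4 points for the sedentary pool and 2 each for WR and RWR, and a bar at the mean of each pool. The points of the 3 pools overlap for most genes, and the WR points of Slc6a11, at 71.9 and 56.4, lie low in or under the sedentary range of 60.1 to 91.4.

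Gabbr1, the GABA-binding subunit of the GABA-B receptor, was read at 3691 in the WR pool against 4192 in the sedentary pool on chip 1 and at 3670 against 3190 on chip 2. On chips 3 and 4 it was read at 3503 in the RWR pool against 4195 and at 3408 against 2991. The sedentary signal was thus 4192 and 4195 in Cy3 and 3190 and 2991 in Cy5, a wider step than that between the pool means. The log2 ratios were -0.18 and 0.20 in WR, with a mean of 0.0093 ± 0.27, or 1.01-fold. They were -0.26 and 0.19 in RWR, with a mean of -0.036 ± 0.32, or 0.975-fold.

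The probe of Gabbr1 was printed at 10 spots on each chip, and its spots leaned the same way on a chip. On chip 1 the spots read from -0.21 to -0.16, on chip 2 from 0.18 to 0.23, on chip 3 from -0.30 to -0.23 and on chip 4 from 0.14 to 0.23. When the 2 chips were averaged spot by spot, the WR values of the 9 spots without a flag spread from -0.0053 to 0.026, with 6 above zero and 3 below. The RWR values of the 10 spots spread from -0.053 to -0.020, and all 10 were below zero. Their mean was -0.036 ± 0.012 (SD over spots). Spots of a chip share the same RNA and the same labelling, so they are no replicates of a condition. Of the 5927 genes, 37.0% had an RWR ratio smaller in size, in either direction, than that of Gabbr1.

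**Figure D3:**
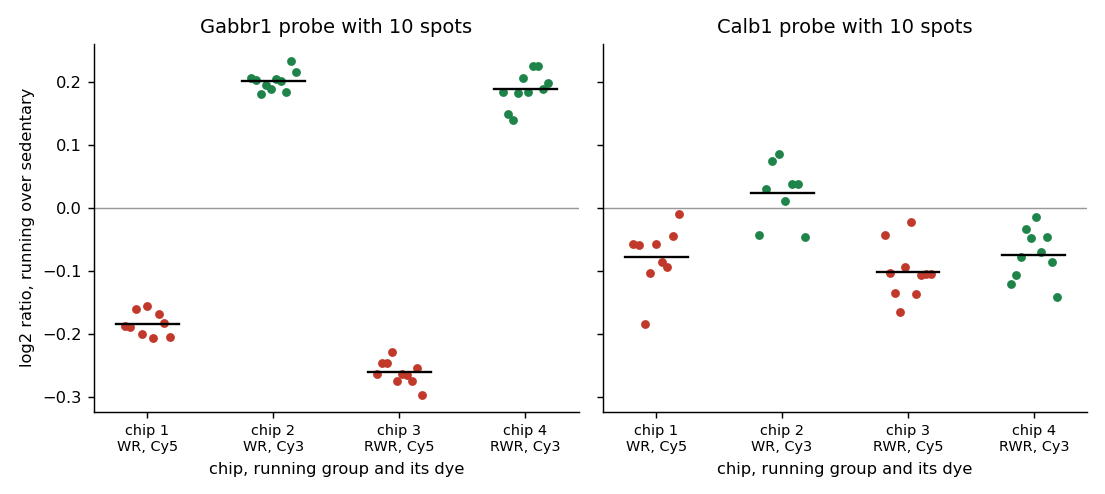
Log2 ratio of the running pool over the sedentary pool (vertical axis) at each unflagged spot of the Gabbr1 probe and of the Calb1 probe that were printed 10 times, by chip (horizontal axis), with a bar at the mean of each chip. The spots of Gabbr1 stay between -0.30 and -0.16 on chips 1 and 3 and between 0.14 and 0.23 on chips 2 and 4, while those of Calb1 lie between -0.18 and 0.086 over the 4 chips.

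Gabbr2, the subunit that carries the signal to the G protein, had signals of 17952 in the WR pool against 19204 in the sedentary pool on chip 1 and 17073 against 15172 on chip 2. With the RWR pool they were 18832 against 19998 on chip 3 and 17064 against 15494 on chip 4. As with Gabbr1, Cy3 was the brighter channel throughout. The mean log2 ratios were 0.036 ± 0.19 in WR, or 1.03-fold, and 0.026 ± 0.16 in RWR, or 1.02-fold. Both subunits of the receptor were within 0.04 of zero in both comparisons.

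Pvalb, the calcium buffer of fast-spiking interneurons, gave the steadiest reading of the 9 genes. Its signals were 1862 in the WR pool against 1914 in the sedentary pool on chip 1, and 1731 against 1682 on chip 2. On chips 3 and 4 they were 1916 in the RWR pool against 2013 and 1623 against 1614. The log2 ratios stayed between -0.072 and 0.042 on all 4 chips. The means were 0.0014 ± 0.057 in WR, or 1.00-fold, and -0.032 ± 0.056 in RWR, or 0.978-fold. In WR 1.75% of the 5927 genes had a ratio smaller in size, in either direction.

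Calb1 was read by 4 probes. Its brightest one had signals between 2173 and 2636, and log2 ratios of 0.093 and -0.027 in WR and of 0.090 and -0.071 in RWR. The means were 0.033 ± 0.085, or 1.02-fold, and 0.0098 ± 0.11, or 1.01-fold. The other probes had WR means of 0.084, -0.026 and -0.053 and RWR means of 0.014, -0.087 and -0.12. The RWR mean was the lower of the 2 at each of the 4 probes, by 0.023 to 0.072, which share 1 transcript and the same pools. The probe printed at 10 spots read below zero in RWR at all 10 spots, with a mean of -0.087 ± 0.029 (SD over spots), whereas the brightest probe stayed at 0.0098. The probe with the lowest mean had signals from 127 to 237, and its sedentary signal differed between the chip pairs by 0.34 in Cy3 and by 0.61 in Cy5 on the log2 scale. The probes of Calb1 thus gave no common direction for RWR against sedentary.

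Reln, the secreted glycoprotein of interneurons and Cajal-Retzius cells, was read by its brighter probe at 2623 in the WR pool against 2462 in the sedentary pool on chip 1 and at 2355 against 2490 on chip 2. With the RWR pool it was read at 3018 against 2753 on chip 3 and at 2265 against 2509 on chip 4. Cy5 was the brighter channel on all 4 chips. The means were 0.0056 ± 0.12 in WR, or 1.00-fold, and -0.0072 ± 0.20 in RWR, or 0.995-fold. The other probe of Reln leaned the same way, from 0.23 and 0.34 on chips 1 and 3 to -0.086 and -0.097 on chips 2 and 4, with means of 0.072 ± 0.22 and 0.12 ± 0.31. Among the Cajal-Retzius markers on the array Lhx1 and Lhx5 were below the background threshold on some or all chips, and Calb2 had means of -0.084 in WR and 0.034 in RWR.

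The lean towards a dye was measured as the mean log2 ratio of Cy5 over Cy3 on the chips of a pair, a quantity from which the difference between the pools cancels. It was 0.16 and 0.17 in the WR and RWR pairs for the brightest probe of Gad1, -0.20 and -0.22 for Slc32a1, -0.19 and -0.22 for Gabbr1, -0.13 and -0.11 for Gabbr2 and 0.086 and 0.14 for Reln. For Pvalb it was -0.041 and -0.040, and for Gad2 -0.099 and -0.061. For Slc6a11 it was -0.13 and -0.073, and for Calb1 0.060 and 0.080. Each of the 9 genes thus leaned to the same dye in both pairs. The lean was larger in size than the running ratio for 8 of 9 genes in WR, all but Slc6a11, and for 7 of 9 in RWR, all but Gad2 and Slc6a11. The same held for 70.0% and 67.2% of the 5927 genes. The median size of the lean was 0.13 in WR and 0.11 in RWR over the 9 genes, against 0.088 and 0.085 over the 5927 genes. The median size of the running ratio was 0.036 in both comparisons over the 9 genes, against 0.045 and 0.051.

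Cy5 or Cy3 was the brighter dye on both chips of a pair for 13 of the 15 probes in WR and 11 of 15 in RWR, and on all 4 chips for 10 of 15. Over the 15 probes, the Cy5 over Cy3 ratios of the chips of a pair had a Pearson correlation of 0.48 in WR and 0.52 in RWR, where a difference between the pools alone would give a negative value. Over the 24953 probes above background, these values were 0.68 and 0.58. The points of each correlation share pools and slide, and they are given as a description.

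**Figure D4:**
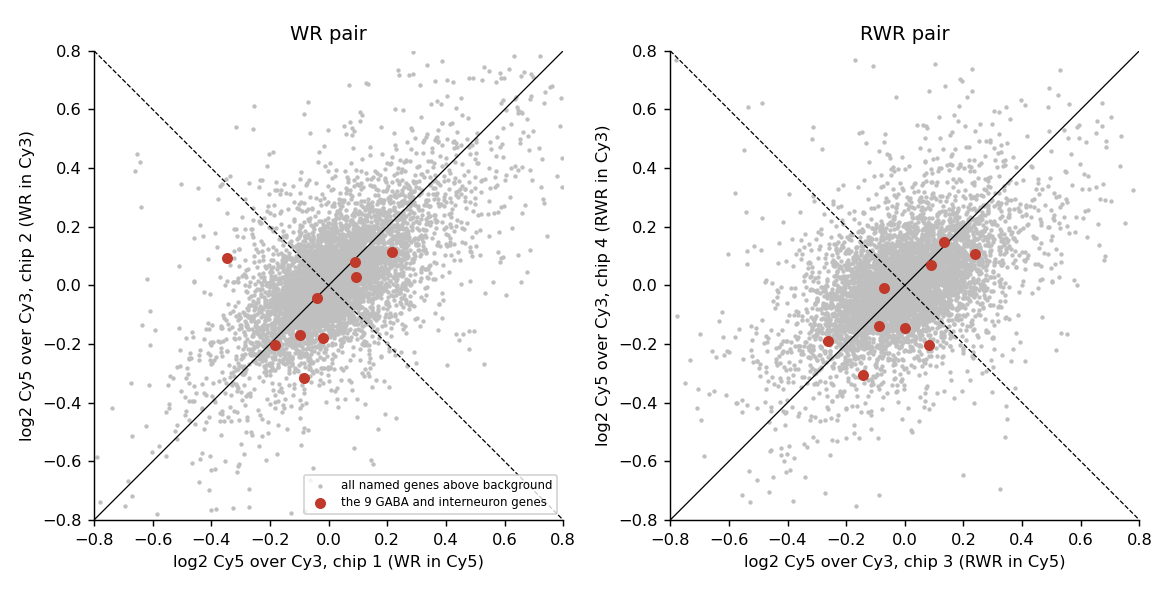
Log2 ratio of Cy5 over Cy3 on the chip with the running RNA in Cy5 (horizontal axis) against the chip with it in Cy3 (vertical axis), for the WR pair on the left and the RWR pair on the right. A ratio from the dye alone lies on the solid diagonal and one from the pools alone on the dashed diagonal. Red points are the brightest probes of the 9 genes and grey points are all 5927 named genes above background, of which 71 in WR and 47 in RWR fall outside the axes. In WR 8 of the 9 genes and in RWR 7 of the 9 have the same sign on both chips, so that the sign went with the dye and not with the pool.

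A gene has the same direction on both chips of a pair when its lean is smaller in size than its running ratio. The counts below therefore restate those given for the lean. With so few genes they do not set the 9 apart. In WR no gene of the 9 was above zero on both chips, against 14.7% of the 5927 genes, and Slc6a11 was the 1 of 9 genes below zero on both, against 15.3%. In RWR 2 of the 9 genes, Gad2 and Slc6a11, were above zero on both chips, against 15.8%, and none was below on both, against 17%. Of these 2, Slc6a11 read 0.00013 on chip 3, which is zero within the error of that chip. By probe the counts were 1 of 15 above and 1 of 15 below zero in WR, against 14.5% and 13.9% of the 24953 probes above background. They were 2 of 15 above and 2 of 15 below in RWR, against 16.7% and 16.2%. In RWR the Gad1 probe with the mean of -0.088 and the 10-spot probe of Calb1 were those below zero on both chips, and in WR a Calb1 probe with a mean of 0.084 was the one above zero on both.

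RWR and WR were compared through their ratios to the sedentary pool, taking the difference within each orientation of the dyes so that a lean common to both pairs cancels. The comparison takes the sedentary RNA to be the same in both pairs, which the labels do not give. It asks whether resistance on the wheel went with another level of these genes. The median difference over the 9 genes was -0.013, with a range from -0.045 to 0.29, against a median of -0.0015 over the 5927 genes. With the running RNA in Cy5 the median over the 9 genes was 0.011 and with it in Cy3 it was -0.014. Gad1, Gad2 and Slc6a11 were higher in RWR in both orientations, 3 of 9 against 28.5% of all these genes. Slc32a1, Pvalb, Calb1 and Gabbr1 were lower in both, 4 of 9 against 29.7%. By probe 3 of 15 were higher in both orientations, against 28.1%, and 7 of 15 were lower, against 28.9%. All 4 probes of Calb1 were among these 7.

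The sizes of these differences were small for all but 1 gene. Gad2 was higher in RWR by 0.10 and 0.026 in the 2 orientations, Gad1 by 0.024 and 0.0058 and Slc6a11 by 0.35 and 0.24. The differences of Pvalb were -0.032 and -0.034, those of Gabbr1 were -0.077 and -0.014 and those of Slc32a1 were -0.061 and -0.011. Those of Gabbr2 were 0.011 and -0.031 and those of Reln 0.042 and -0.067, in opposite directions. For Slc6a11 97.9% of the 5927 genes had a difference smaller in size, at the signal of 56.4 to 91.4 described above.

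Further genes of the pathway were taken from 6 lists on GABA synthesis and breakdown, transport and chloride, the GABA-B receptor, the Reelin pathway, interneuron markers and the inhibitory postsynapse. They held 46 genes beside the 9, of which 33 were named on the array and 30 were above background. None of the 30 was called in either direction in WR or RWR, against 0.0317% and 0.0585% of all probes. This absence of calls does not set them apart. Their median log2 ratio was 0.032 in WR, with a range from -0.19 to 0.18, and 0.039 in RWR, with a range from -0.10 to 0.24. In WR both chips were above zero for 4 of the 30 and below for 2, against 14.7% and 15.3% of the 5927 genes. In RWR both were above for 8 of the 30 and below for 0, against 15.8% and 17%. All 30 lay within 0.2 of zero in WR and 29 of 30 in RWR, against 95.8% and 96.0% of the 5927 genes.

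Kcnj6, a potassium channel subunit opened by GABA-B receptors, had log2 ratios of 0.29 and 0.069 in WR and of 0.30 and 0.065 in RWR, with means of 0.18 in both. The related channel genes Kcnj3 and Kcnj9 had means of 0.060 and 0.034 in WR and of -0.025 and 0.041 in RWR. Npy, a peptide of a large class of interneurons, was the 1 gene beyond 0.2, with a mean of 0.24 in RWR from chips at 0.50 and -0.011, and of 0.13 in WR from chips at 0.40 and -0.14. Tac3, which encodes a tachykinin, read 0.17 on both RWR chips and had a mean of 0.063 in WR. Kcnc2, a potassium channel of fast-spiking cells, had a mean of 0.15 in WR and 0.099 in RWR. Slc6a13, another GABA transporter, had means of -0.19 in WR and -0.10 in RWR, and its chips stood on opposite sides of zero in both.

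Among the remaining genes of the lists, Dab1, the adaptor of Reelin signalling, had means of 0.071 and 0.063, and Vldlr, a receptor of Reelin, had means of 0.032 and 0.093. Of the postsynaptic genes, Lhfpl4 had means of -0.013 and 0.074 and Nlgn2 of 0.045 and 0.036. The medians of the 6 lists, the 9 genes included, were between 0.016 and 0.046 in WR and between 0.014 and 0.063 in RWR.

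**Figure D5:**
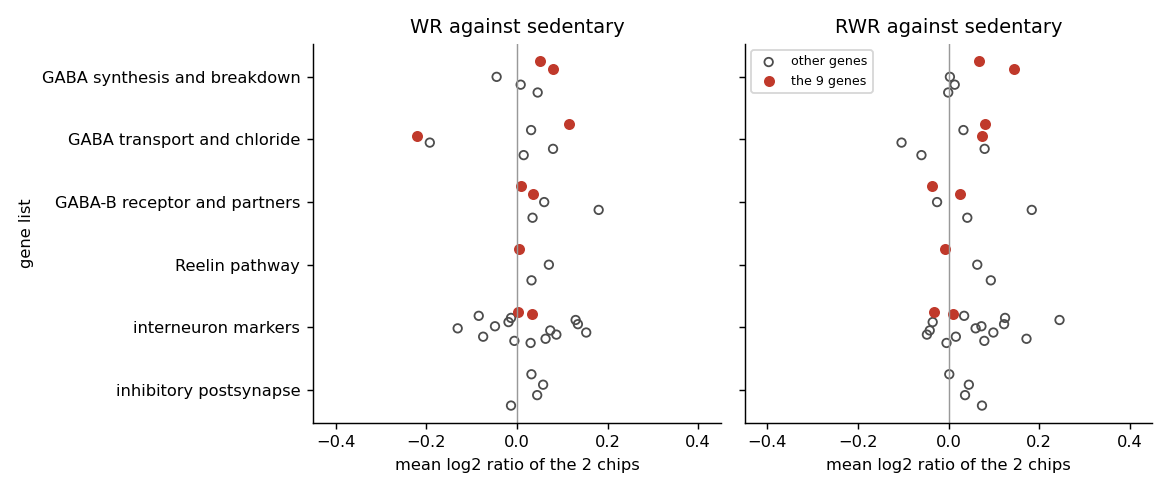
Mean log2 ratio of the running pool over the sedentary pool (horizontal axis) for the genes above background on each of the 6 lists (vertical axis), with WR on the left and RWR on the right and 1 point per gene. Filled points are the 9 genes and open points are the others. The points scatter around zero between -0.22 and 0.18 in WR and between -0.10 and 0.24 in RWR.

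The hippocampal label was set against markers of the cell types the tissue could hold. All 6 named markers of excitatory neurons, all 7 of astrocytes, all 6 of oligodendrocytes and all 6 of microglia were above background, and 16 of the 18 named interneuron markers were. The striatal markers Drd1 and Drd2 were below the background threshold on some chips. The medians of the excitatory markers were -0.0018 in WR and 0.0063 in RWR, and those of the astrocyte markers were 0.0066 and 0.0071. The microglia markers had medians of 0.050 and 0.061. The oligodendrocyte markers had medians of -0.070 and -0.075, with all 6 means below zero in both comparisons and none called, and the 4 striatal markers above background had medians of 0.037 and 0.0087. The 2 thalamic markers that were named, Prkcd and Ramp3, had WR means of -0.13 and -0.14, each below zero on both chips. In RWR they went opposite ways, Prkcd with a mean of 0.24 and above zero on both chips and Ramp3 with a mean of -0.097 and below zero on both. Prkcd thus had the same signs as Slc6a11 in both comparisons. The part of any of these cells in the ratios of the 9 genes was not tested.

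Slc6a11 had the largest mean of the 9 genes in either direction, and the genes with the pattern nearest to it were sought by the distance between their turned log2 ratios on the 4 chips. Of the 5927 genes, the nearest was Slc13a3, at a distance of 0.097, followed by Col3a1 at 0.10 and Tmem45b at 0.12. The distance rests on 4 chips and on pools of 3 groups.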

How the data were processed

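Hippocampal RNA pooled within 3 groups of rats was measured on 4 chips of 2 colours on 1 slide. The authors pooled RNA within groups and processed the scans with Agilent Feature Extraction 11.0.1.1, which subtracted the local background with spatial detrending and balanced the dyes by LOWESS. For each spot the authors deposited an intensity per dye after these steps, a log10 ratio (Cy5 over Cy3) and a p-value that the error model of the software gave for that chip alone. The median intensity was 62.2 to 78.3 per dye and chip. Precision was limited by the number of chips.

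Control spots and outlier spots (118 to 140 per chip) were dropped here. Ratios were oriented as running over sedentary, put on the log2 scale and averaged over the spots of a probe and the chips of a pair. Where a gene had several probes, all were read and the brightest stood for it. Array accessions, designed on build rn4, were matched to RefSeq symbols of the assembly GRCr8, which served for names only, and 10768 of 41012 probes matched 8899 symbols. Chip pairs were technical repeats, so no test between conditions was made. The genes, the lists and the call rule were chosen with earlier results of these data known. Beyond the 9 genes, a listed gene was named when it was called or stood among the 3 largest mean ratios of its list; some genes that this rule names are not reported here. Alternatives used other background corrections (limma 3.58.1 in R 4.3.3, normexp with offset 50), other centring, the series matrix, other filters, the median over a gene's probes and single chips. The other calculations used Python 3.11.15 and were tested on simulated data.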

Additional observations from a re-analysis of the deposited data

Results flagged for a closer look

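Slc6a11 was read below zero on both WR chips, at log2 ratios of -0.35 and -0.094, and above zero on both RWR chips, at 0.00013 and 0.15, so that every chip of a comparison pointed one way and every chip of the other comparison the opposite way. The difference between the RWR and WR means was 0.293 on the log2 scale and was not tested, since each comparison had 1 biological replicate. Chip 3 was at zero within its error, with a deposited p-value of 0.9996.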

How the results depend on the processing

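No gene of the 9 was called in WR or RWR under any alternative run. The WR median was 0.031 with normexp background correction, 0.032 without correction and -0.0097 with subtracted signals centred on the median and no LOWESS, and the RWR median was 0.050, 0.049 and 0.11. With a chip left out the WR median ranged from -0.039 to 0.042 and the RWR median from 0.00013 to 0.14; the lowest WR value was that without the Cy3 chip and the highest RWR value that without the Cy5 chip. The RWR minus WR median changed sign to 0.014 with normexp, 0.0094 without correction, 0.11 without LOWESS and, in an alternative added after the data were seen, 0.011 with running RNA in Cy5 alone, and it ranged from -0.035 to 0.12 with a chip left out. It has no settled direction. Over both comparisons 9 of 144 gene values changed sign, 7 of 18 without LOWESS and 2 of 18 with the median over probes. The 144 include alternatives that left the values as they were or nearly so. These were the filters on background, which every probe passed, the series matrix and the centring of the deposited ratios. With a chip left out 15 of 36 changed sign. That count was set by the genes whose chips stood on opposite sides of zero, since a single chip keeps its lean towards a dye. The number of genes above zero without LOWESS was 4 of 9 in WR and 9 of 9 in RWR. Gad2 in RWR stayed above zero (0.083 to 0.23), and Slc6a11 in WR below (-0.35 to -0.094), in all of these. With a chip left out this had to be so, because both chips of the pair had the same sign. The labels carry no replicate numbers, and the chips were paired by their exchange of dyes. No paired test between conditions was possible because each comparison had 1 biological replicate. The differences within each dye orientation are therefore values without a test. Dim probes such as that of Slc6a11, with a signal of 56.4 to 91.4, limit what could be measured.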
